A study of Mus musculus with 5 samples.

Results

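Tumor cluster 2 is a set of single cells from a pancreatic tumor of a mouse without the glucagon receptor gene Gcgr, set apart by very high Mdm2 and Cdk4 RNA. Its members are all cells of the tumor table that carry the number 2 in the graph-based clustering deposited with it: 708 of 2467 tumor cells. All 708 came from 1 of the 3 tumor libraries, called library C here, and the authors' own cell classes gave 701 of them the type Tumor 1. The cells were set against the 389 cells of cluster 4, which came from the same library C, then against the 511 cluster 3 cells of library A and the 853 cluster 1 cells of library B. All 3 tumor libraries are labelled as GCGR homozygous knockout tumors of Mus musculus, made with a droplet kit that counts RNA molecules at the 3' end of transcripts by unique molecular identifiers (UMIs). Alpha cells of the 1 library of GCGR homozygous knockout islets give the level of a few genes in islet cells of that genotype. Age, strain and the driver of the tdTomato reporter that the table lists are not given in the sources used here. With 1 library for cluster 2 there is no replicate check of any difference, and cells of 1 library are not replicates. The values below are therefore descriptions with counting error only, and no p-value is given.

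Mdm2 encodes the E3 ubiquitin ligase that marks the tumor suppressor p53 for destruction, and its own transcription is switched on by p53. Cdk4 encodes the kinase that, with a D-type cyclin, phosphorylates the retinoblastoma protein and lets cells leave G1. The 2 genes are often gained together in human liposarcoma, and in the mouse both lie on chromosome 10. Loss of the glucagon receptor raises blood amino acids and drives alpha cells, which make glucagon in the islet, to divide. DNA copy number was not measured in these libraries.

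After 11 called doublets were left out, cluster 2 held 697 cells with 13530688 UMIs and a median of 18851 UMIs a cell. Cluster 4 kept 385 cells with a median of 21029 UMIs, cluster 3 kept 493 with 19771 and cluster 1 kept 844 with 26120.5. Levels below are UMIs per 1000000 UMIs of a cluster (CPM). A gene was called higher or lower where the exact 95% interval of the ratio of the 2 pooled counts lay wholly beyond 1.5-fold, with at least 10 CPM in 1 of the clusters. These calls say that 2 pools of cells differ, not that 2 groups of tumors do. The median share of mitochondrially encoded RNA in a cell was 2.33% in cluster 2, 1.88% in cluster 4, 1.41% in cluster 3 and 1.28% in cluster 1. All 9 alpha cell markers were detected in every cluster. Their summed level was 385434 CPM in cluster 2, 451245 CPM in cluster 4, 430830 CPM in cluster 3 and 408456 CPM in cluster 1. Glucagon RNA (Gcg) was most of this sum, at 306105 CPM in cluster 2, 322917 CPM in cluster 4, 364465 CPM in cluster 3 and 284107 CPM in cluster 1. Of 8 markers compared with cluster 4, 0 were higher and 2 lower (6.35% and 3.53% of all genes). Of 9 compared, 0 were higher and 3 lower than in cluster 3 (10.5% and 6.56%), and likewise for cluster 1 (10.6% and 5.52%). The median log2 ratio of the markers, minus that of all genes, was -0.36, -0.42 and -0.43 against clusters 4, 3 and 1. Gcgr had 3 UMIs in cluster 2, 0 in cluster 4, 0 in cluster 3 and 1 in cluster 1. The exact 95% Poisson upper bound for 0 UMIs is 0.448 CPM in cluster 4 and 0.368 CPM in cluster 3.

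The 4 genes given as markers of the cluster were each over 10-fold above every other tumor cluster. Mdm2 stood at 2450 CPM in cluster 2 (95% Poisson interval 2424 to 2477), against 168 CPM in cluster 4, 49.4 CPM in cluster 3 and 44.9 CPM in cluster 1. Cdk4 stood at 2765 CPM in cluster 2 (2737 to 2793), against 212 CPM in cluster 4, 90.1 CPM in cluster 3 and 152 CPM in cluster 1. The ratio of cluster 2 to cluster 4 was 14.6 for Mdm2 (13.8 to 15.4) and 13.0 for Cdk4 (12.4 to 13.7). In alpha cells of the homozygous knockout islets, in a table normalized separately, Mdm2 stood at 26.1 CPM and Cdk4 at 89.6 CPM. The distance from the islet level was thus much larger in cluster 2 than in the other tumor clusters.

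Sf3a2, a subunit of the SF3A complex of the U2 spliceosomal particle, and Plekhj1, a gene for a pleckstrin homology domain protein, are head-to-head neighbours on chromosome 10. Sf3a2 stood at 3247 CPM in cluster 2, against 105 CPM in cluster 4, 20.03 CPM in cluster 3 and 26.2 CPM in cluster 1, a ratio to cluster 4 of 31.0 (29.0 to 33.2). Plekhj1 stood at 6926 CPM in cluster 2, against 340 CPM in cluster 4, 56.2 CPM in cluster 3 and 99.9 CPM in cluster 1, a ratio to cluster 4 of 20.4 (19.6 to 21.2). Homozygous knockout islet alpha cells had 17.5 CPM of Sf3a2 and 70.2 CPM of Plekhj1. The DNA between their starts is shown because the whole of it lies between 2 of the most raised transcripts. It is 108 bases long in RefSeq's GRCm38.p6, at chr10:80798627-80798734, and is printed 5′ to 3′ on the plus strand, on which Sf3a2 lies, with Plekhj1 on the minus strand. Capitals mark the letters CCGGAAG, the core of sites of ETS family factors.
Plekhj1-Sf3a2: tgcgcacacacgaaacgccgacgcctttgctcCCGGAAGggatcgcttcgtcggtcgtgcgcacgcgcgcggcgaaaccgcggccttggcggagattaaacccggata
The motif was searched on both strands and occurred once, from base 33. Of 32851 stretches of the same length before RefSeq starts, 4.75% hold it. The stretch has 20 CG dinucleotides, against a median of 3 over those stretches, and 65.7% of its bases are G or C. A match is a description of the letters and no evidence of binding.

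In single cells the levels spread widely in cluster 2 and most cells lay above cluster 4. Mdm2 ranged over 0, 1998 and 15412 CPM (lowest, median and highest) in the 697 cluster 2 cells, against 0, 154 and 1245 CPM in the 385 cluster 4 cells. Cdk4 ranged over 0, 2178 and 21124 CPM in cluster 2, against 0, 185 and 851 CPM in cluster 4. For Mdm2, 97.6% of cluster 2 cells lay above the 95th percentile of cluster 4, and for Cdk4 96.4% did. No cluster 4 cell reached the median of cluster 2 for either gene. The tails overlapped, since 74.5% of cluster 2 cells lay above the highest cluster 4 cell for Mdm2, 84.2% for Cdk4, 60.3% for Sf3a2 and 64.3% for Plekhj1.

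**Figure D1:**
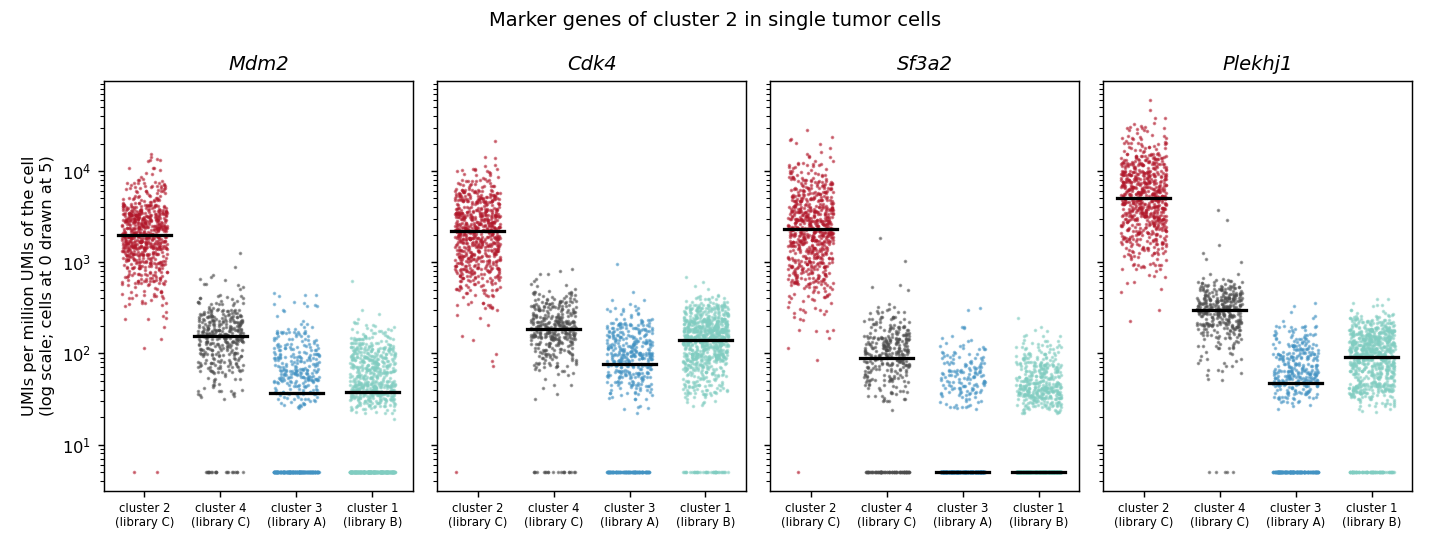
Level of Mdm2, Cdk4, Sf3a2 and Plekhj1 in each kept tumor cell, in UMIs per 1000000 UMIs of that cell on a log axis, with cells at 0 drawn at 5; columns are cluster 2, cluster 4, cluster 3 and cluster 1 and black bars are medians. Cluster 2 lies above the other clusters for all 4 genes, with a median for Mdm2 of 1998 against 154 in cluster 4, and spreads over more than 10-fold.

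The raised genes of chromosome 10 were scattered along it and were not a continuous block. A gene was counted as raised, by a rule chosen after the values were seen, with 30 CPM or more in cluster 2 and the lower bound of its ratio above 3 against each of clusters 4, 3 and 1. This held for 31 of the 407 chromosome 10 genes compared, 22 of them with names that are not those of predicted genes. Since the rule used these ratios, their size is a description. The ratio to cluster 4 ran from 6.15 (Ltv1) to 33.7 (Cd24a) with a median of 15.4, and the median ratio was 35.9 to cluster 3 and 30.1 to cluster 1. Just inside the rule were Dusp6 and Ltv1, with lowest bounds of 4.80 and 5.20, and just outside were Zc3h10 and Vta1 with 2.90 and 2.86. Together the 31 genes made up 3.44% of all UMIs of cluster 2, against 0.199% in cluster 4.

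The 31 genes formed 22 runs of adjacent compared genes, from base 9975947 to base 128565934, and 14 of the runs held a single gene. The longest run had 3 genes, Tsfm, a predicted gene and Mettl1. Among compared genes only Cyp27b1 parted it from the run of March9 and Cdk4, and it had a ratio to cluster 4 of 9.69 but 15.3 CPM in cluster 2, under the minimum of the rule. Tdg, Tbc1d30 and Avil, which also bordered runs and were under that minimum, had ratios of 13.4, 7.42 and 4.11. Of the 43 compared genes that bordered a run without being raised, 8 were higher and 1 lower than in cluster 4, beside 6.35% and 3.53% of all genes. The other 34 were not past 1.5-fold, and the median ratio of the 43 was 1.22. Cpm and Mdm2 lay between Cpsf6 with a ratio of 1.15 and Nup107 with 3.83. Nup107 and the next genes, Rap1b and Mdm1, were not raised by the rule. Their log2 ratios to cluster 4 still lay 1.76, 1.43 and 1.72 above the median of all genes, before Dyrk2 at -0.57. On the far side of Cdk4 the next gene, Tspan31, had a ratio of 0.80, and Pa2g4, a growth-related RNA-binding protein gene, lay between Rpl41 at 1.14 and Rps26 at 0.99. Dot1l and Lsm7, on the outer sides of Plekhj1 and Sf3a2, had ratios of 2.14 and 1.52. Over all 407 compared genes, 71 (17.4%) were higher in cluster 2 than in cluster 4 and 14 (3.44%) were lower. The other 376 had a median log2 ratio 0.02 above the median of all genes. Of these 376, 40 were higher and 14 lower than in cluster 4, beside 6.35% and 3.53% of all genes. The first 10 Mb, in a window search made after the values were seen, had a lower median over its 10 genes of 20 CPM or more. Its relative median log2 ratio was -0.51 against cluster 4, -0.50 against cluster 3 and -0.39 against cluster 1. Not every compared gene there was lower. The raised predicted gene starting at base 9975947 lay at 4.70 and Rgs17 at 0.74 against cluster 4.

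Raised members outside the marker list covered several roles. Cd24a, the gene of a mucin-like surface glycoprotein, stood at 3610 CPM in cluster 2, against 107 CPM in cluster 4, 5.78 CPM in cluster 3 and 61.4 CPM in cluster 1. Pcbd1, the gene of an enzyme that recycles tetrahydrobiopterin, stood at 5631 CPM in cluster 2, against 423 CPM in cluster 4, 228 CPM in cluster 3 and 322 CPM in cluster 1. Pa2g4 stood at 3049 CPM in cluster 2, against 108 CPM in cluster 4, 61.4 CPM in cluster 3 and 81.0 CPM in cluster 1. These 3 were each over 10-fold above every other tumor cluster. Lss, the lanosterol synthase of cholesterol synthesis, stood at 257 CPM in cluster 2, against 23.3 CPM in cluster 4, 8.97 CPM in cluster 3 and 7.4 CPM in cluster 1. Dusp6, a phosphatase that switches off ERK, stood at 167 CPM in cluster 2, against 22.8 CPM in cluster 4, 30.8 CPM in cluster 3 and 22.3 CPM in cluster 1. Socs2, an inhibitor of cytokine signalling, stood at 271 CPM in cluster 2, against 33.2 CPM in cluster 4, 23.6 CPM in cluster 3 and 15.8 CPM in cluster 1. All 31 ratios lay at or above that of Ltv1. Mettl1, a tRNA methyltransferase gene, had a ratio to cluster 4 of 13.2 (12.0 to 14.4), and Eea1, an early endosome tether gene, one of 11.6 (10.3 to 13.0).

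Cluster 4, from the same library, also carried these transcripts above clusters 3 and 1 for 27 of the 31 genes. The excess of cluster 4 over the other 2 had a median of 3.30% of the level in cluster 2 and ran from -2.23% to 6.07%. The part of free RNA of library C in this excess was not tested. No kept cell of cluster 4 carried the authors' type Tumor 1. Summed over the 31 genes, single cells held 3778, 28479 and 207010 CPM in cluster 2 (lowest, median and highest), against 915, 1849 and 11030 CPM in cluster 4. Of the 697 cluster 2 cells, 638 (91.5%) lay above the highest cluster 4 cell.

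**Figure D2:**
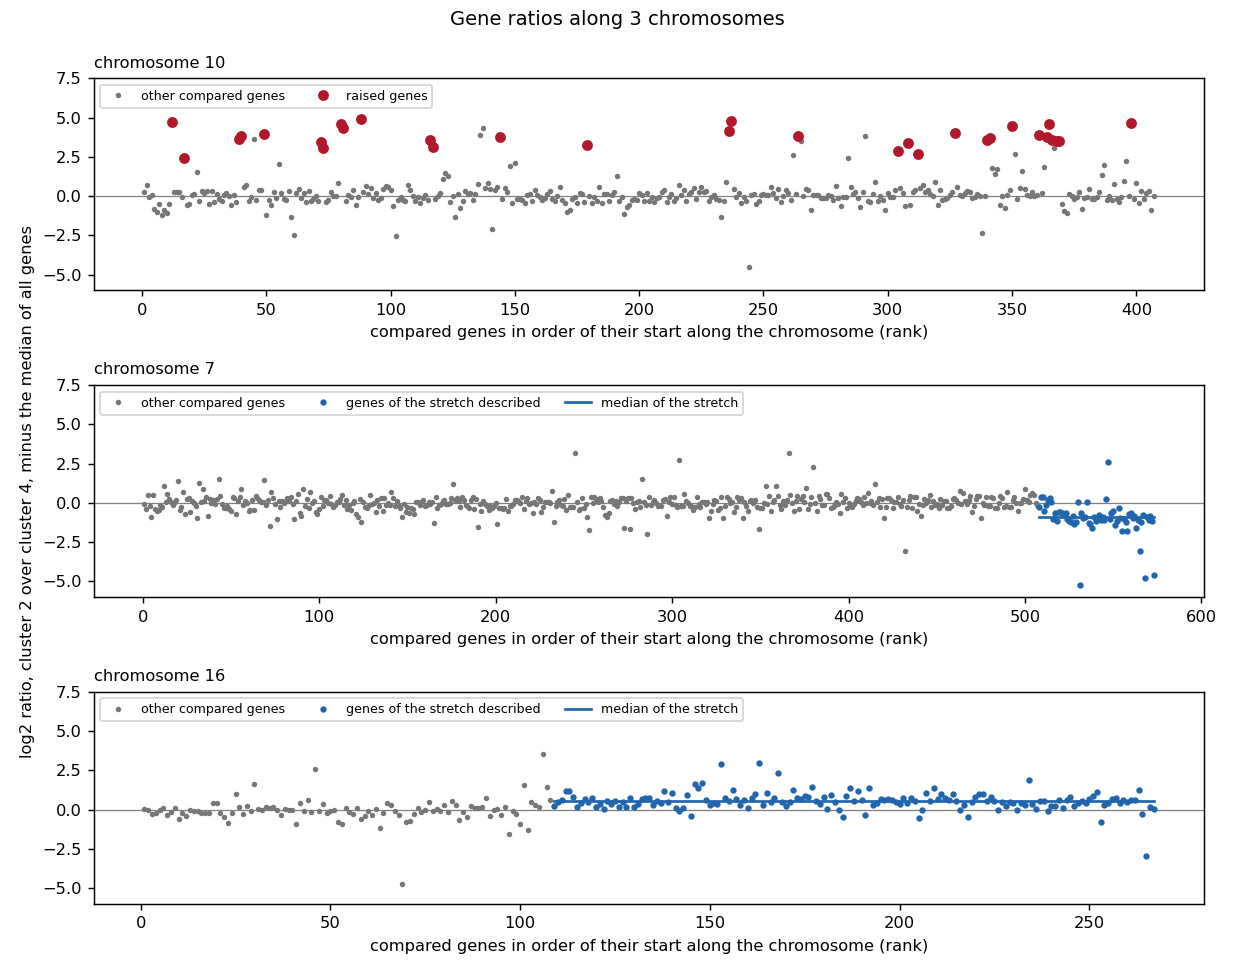
Log2 ratio of cluster 2 over cluster 4, minus the median of all genes, for each compared gene of chromosomes 10, 7 and 16, placed by rank of its start. The raised genes (red) stand singly or in short runs on chromosome 10, while the blue stretches shift together, down at the end of chromosome 7 (median -0.93 over its genes of 20 CPM or more) and up along most of chromosome 16 (0.53).

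The raised genes varied together from cell to cell, more closely within 2 sets than between them. For the 18 raised genes with 200 CPM or more in cluster 2, Spearman's rho was taken between all pairs over the 697 cells, on CPM of the cell. These points share 1 library and its depth. Sf3a2 and Plekhj1 had a rho of 0.93, Mdm2 and Plekhj1 0.83, and Mdm2 and Sf3a2 0.80. Cdk4 and Pa2g4 had a rho of 0.87 and Cdk4 and Pcbd1 0.86. Mdm2 and Cdk4 themselves had a rho of 0.43, and 0.37 after each cell was thinned to 5000 UMIs. In cluster 4 the same pairs lay near 0, with 0.03 for Mdm2 and Plekhj1 and 0.14 for Cdk4 and Pa2g4. The 18 genes were chosen by their level in cluster 2 and had far fewer UMIs in cluster 4. Mdm2, for example, stood at 168 CPM there, against 2450 CPM in cluster 2. Counting noise at low counts pulls rho toward 0, so these values do not show whether the genes vary together in cluster 4.

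Each gene was then assigned to whichever of Mdm2 and Cdk4 it correlated with more. The Mdm2 set held 6 genes: Hbs1l, 1700016J18Rik, Plekhj1, Sf3a2, Socs2 and Mdm2. The Cdk4 set held 12: Rpf2, Gtf3c6, Cd24a, Pcbd1, Sgpl1, Lss, 1190007I07Rik, Eea1, Tsfm, Mettl1, Cdk4 and Pa2g4. The median rho was 0.59 within the Mdm2 set, 0.68 within the Cdk4 set and 0.39 between them, in part by construction, since the split used the correlations with Mdm2 and Cdk4. After thinning the 3 medians were 0.41, 0.49 and 0.29. In cluster 4, with the same limit of low counts, they were 0.07, 0.05 and 0.06. Over 72010 pairs of 380 genes of other chromosomes at this level in cluster 2, the median was 0.06 and the 95th percentile 0.25, and over 25 such chromosome 10 genes that were not raised the median was 0.08. The median between the sets thus also lay above that 95th percentile, and the summed levels of the 2 sets had a rho of 0.60 in cluster 2.

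Genes of 1 run fell in 1 set, but the sets were interleaved along the chromosome. Rpf2 and Gtf3c6, Pcbd1 and Sgpl1, Plekhj1 and Sf3a2, and Tsfm and Mettl1 shared a run and a set, and Cdk4, near the last pair, was in their set. Socs2, starting at base 95383903, had a rho of 0.33 with Mdm2 and 0.27 with Cdk4, values too close to place it firmly. Lss, with 0.45 for Mdm2 and 0.54 for Cdk4, and Sgpl1, with 0.38 and 0.51, were not placed firmly either. After thinning these values were 0.32 and 0.37 for Lss and 0.26 and 0.36 for Sgpl1. Eea1, starting at base 95940663, had 0.46 with Mdm2 and 0.76 with Cdk4. Hbs1l, starting at base 21295979, far from Mdm2 at base 117688875, had a rho of 0.74 with Mdm2 and 0.54 with Cdk4. Rpf2, at base 40223246, had 0.33 with Mdm2 and 0.79 with Cdk4.

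**Figure D3:**
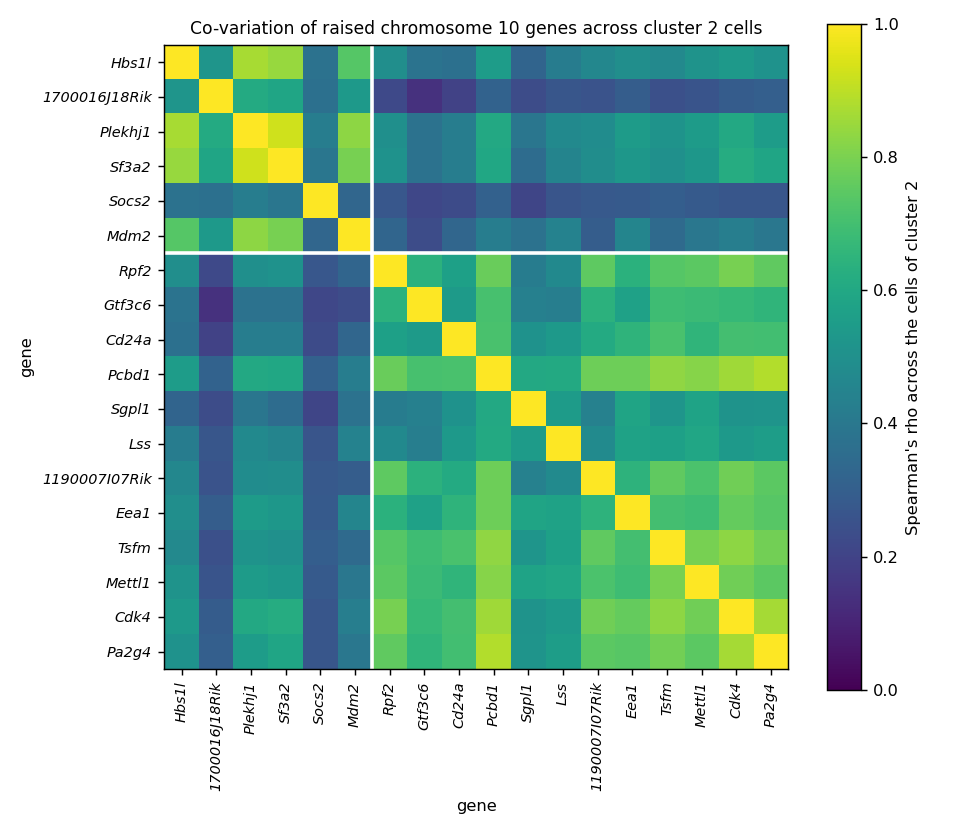
Spearman's rho between 18 raised chromosome 10 genes over 697 cluster 2 cells, with the 6 genes of the Mdm2 set first, then the 12 of the Cdk4 set, each in order of position; white lines part the sets. Values run up to 0.93 within the Mdm2 set and are lower between the sets, with a median of 0.39.

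Almost every cluster 2 cell carried both sets above the level of most cluster 4 cells. The summed level of the Mdm2 set and that of the Cdk4 set both lay above the 95th percentile of cluster 4 in 692 of the 697 cells, the Mdm2 set alone in 1 cell and the Cdk4 set alone in 4. Set against the highest cluster 4 cell instead, 223 of the 697 cells lay at or below it for the Mdm2 set and 69 for the Cdk4 set. In 25 of the 385 cluster 4 cells both sets lay above the lowest value of cluster 2. The Mdm2 set ran from 2799 CPM at the 5th percentile to 36107 CPM at the 95th in cluster 2, a spread of 12.9-fold, against 340 to 1105 CPM and 3.25-fold in cluster 4. The Cdk4 set ran from 4556 to 44806 CPM in cluster 2, a spread of 9.83-fold, against 653 to 1611 CPM and 2.47-fold in cluster 4. The ratio of the Mdm2 set to the Cdk4 set was 0.231 at the 5th percentile, 0.734 at the median and 1.94 at the 95th. The balance between the sets thus differed by several-fold among cells of 1 cluster. The summed level of the 31 genes had a rho of only 0.09 with the UMIs of the cell.

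After thinning to 5000 UMIs, the raised genes also varied more than other genes of the same cells. The excess squared coefficient of variation, which is the variance beyond counting noise over the squared mean, had a median of 0.675 (0.336 to 2.46) over 25 raised genes of 100 CPM or more in cluster 2. Over 1019 other genes at that level in cluster 2 it was 0.114 with a 95th percentile of 0.682. In cluster 4 the median was 0.234 over the 7 raised genes at that level and 0.105 over 878 others. The value in cluster 4 depended on the setting. The medians of the raised genes were 0.641 in cluster 2 and 0.433 in cluster 4 at 10000 UMIs, and 0.658 in cluster 2 and 0.489 in cluster 4 with doublets kept. Outside chromosome 10 the most variable transcripts of cluster 2 included hormones of other islet cells (Ins1, Sst, Ppy and Ins2). They also included Cartpt, a neuropeptide precursor (3.23 in cluster 2, 14.7 in cluster 4), the imprinted gene Peg10 (2.75 and 4.92) and the CDK inhibitor Cdkn1a (2.27 and 1.09).

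**Figure D4:**
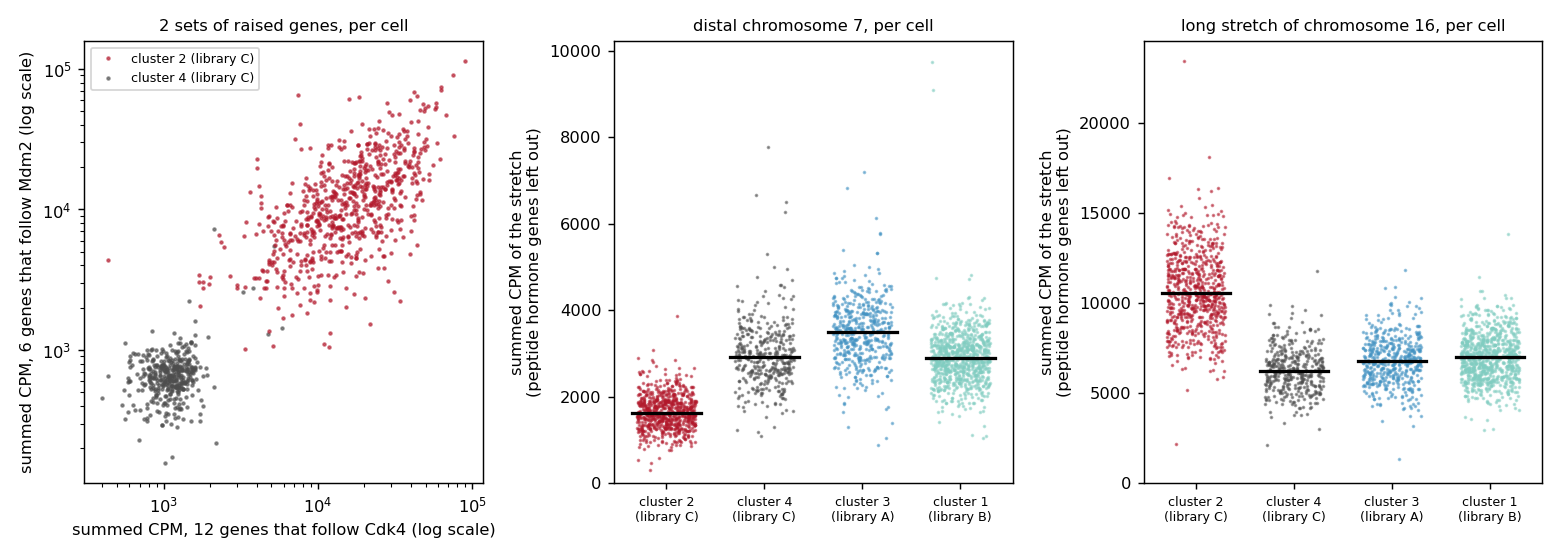
Left, summed CPM of the 6 genes of the Mdm2 set against that of the 12 genes of the Cdk4 set in single cells, both on log axes, for cluster 2 and cluster 4; middle and right, summed CPM of the genes of distal chromosome 7 and of a long stretch of chromosome 16 in single cells of cluster 2, cluster 4, cluster 3 and cluster 1, with medians as bars and hormone genes left out. Cluster 2 cells have a median of 1621 CPM on distal chromosome 7 against 2925 in cluster 4, and 10532 CPM on chromosome 16 against 6231 in cluster 4.

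Away from chromosome 10, 2 chromosome stretches shifted as blocks in cluster 2, a pattern searched for in windows of 10 Mb and chosen after the values were seen. The end of chromosome 7 was lower. Over 52 genes of 20 CPM or more in 1 of the clusters from base 130000001 on, the median log2 ratio relative to all genes was -0.93 against cluster 4, -0.90 against cluster 3 and -0.94 against cluster 1, while the 364 genes of the rest of the chromosome had a median of 0.01 against cluster 4. Cluster 4 itself differed little there, with -0.08 against cluster 3 and -0.04 against cluster 1. The shift began near Oat, the gene of ornithine aminotransferase: the 7 genes before it lay between -0.49 and 0.36, and 42 of the 45 genes from Oat on lay below the median of all genes against cluster 4. The median ratio of these 45 genes was 0.549. Against all 3 other clusters, 39 of the 45 were below the median. The exceptions were Zfp941, Ifitm3, Irf7, Sct, Ins2 and Cd81, which were high in at least 1 comparison.

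Called lower against cluster 4 were 22 of the 52 genes and called higher was 1, read against 3.53% and 6.35% of all genes. The difference was moderate for most genes of the stretch and very large for a few. Ctsd, the lysosomal protease cathepsin D and chosen after its values were seen, stood at 48.4 CPM in cluster 2, against 132 CPM in cluster 4, 126 CPM in cluster 3 and 98.1 CPM in cluster 1. Hras, likewise, stood at 33.7 CPM in cluster 2, against 54.7 CPM in cluster 4, 52.8 CPM in cluster 3 and 88.2 CPM in cluster 1. Their ratios to cluster 4 were 0.367 and 0.616, to either side of the median of the stretch. Kcnq1ot1, the imprinted antisense RNA of the Kcnq1 domain, stood at 5.99 CPM in cluster 2, against 145 CPM in cluster 4, 182 CPM in cluster 3 and 194 CPM in cluster 1. Ccnd1, the D-type cyclin gene at the very end of the chromosome, stood at 5.40 CPM in cluster 2, against 114 CPM in cluster 4, 94.95 CPM in cluster 3 and 128 CPM in cluster 1. Caly, a vesicular trafficking gene, stood at 1.11 CPM in cluster 2, against 38.0 CPM in cluster 4, 11.1 CPM in cluster 3 and 7.0 CPM in cluster 1. These 3 were far below the rest of the stretch. For Kcnq1ot1 and Ccnd1 the ratio to cluster 4 was 0.0412 (0.0325 to 0.0517) and 0.0471 (0.0366 to 0.0599). A single gene called in the stretch went the other way: secretin (Sct) stood at 219 CPM in cluster 2, against 31.7 CPM in cluster 4, 98.1 CPM in cluster 3 and 85.9 CPM in cluster 1.

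Chromosome 16 was higher from about base 30000001 to its end. Over 130 genes the relative median was 0.53 against cluster 4, 0.65 against cluster 3 and 0.62 against cluster 1, with 118 of 130 above the median of all genes against cluster 4. The 83 genes nearer the start had a median of -0.04. Genes called higher against cluster 4 numbered 48 of the 130 and those lower 1, read against 6.35% and 3.53% of all genes. The shift was small for most genes and broad. Hmgn1, a nucleosome-binding protein gene, stood at 495 CPM in cluster 2, against 181 CPM in cluster 4, 183 CPM in cluster 3 and 276 CPM in cluster 1. Atp5j, a subunit of the mitochondrial ATP synthase, stood at 943 CPM in cluster 2, against 479 CPM in cluster 4, 429 CPM in cluster 3 and 465 CPM in cluster 1. Gap43, a growth cone protein gene, stood at 80.5 CPM in cluster 2, against 14.3 CPM in cluster 4, 9.07 CPM in cluster 3 and 15.2 CPM in cluster 1. These 3 were picked after their values were seen and lay above the median of the stretch. Their relative log2 ratios to cluster 4 were 1.28 for Hmgn1, 0.81 for Atp5j and 2.31 for Gap43. App, also in the stretch, had a ratio to cluster 4 of 1.09 (1.02 to 1.17), so not every gene of the stretch was higher.

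Both block shifts were shared by the cells. With hormone genes left out, distal chromosome 7 summed to a median of 1621 CPM a cell in cluster 2, against 2925 CPM in cluster 4, 3495 CPM in cluster 3 and 2890 CPM in cluster 1, and 80.3% of cluster 2 cells lay below the 5th percentile of cluster 4. Chromosome 16 summed to a median of 10532 CPM in cluster 2, against 6231 CPM in cluster 4, 6783 CPM in cluster 3 and 6985 CPM in cluster 1, and 85.1% of cluster 2 cells lay above the 95th percentile of cluster 4. The spread of these sums within cluster 2 was close to that in cluster 4, 2.3-fold against 2.2-fold from the 5th to the 95th percentile for chromosome 7 and 1.93-fold against 1.89-fold for chromosome 16. They therefore lacked the wide cell-to-cell range of the raised chromosome 10 genes. The summed raised genes had a rho of -0.03 with the sum of distal chromosome 7 and 0.19 with that of chromosome 16. The 2 stretch sums, both shares of the UMIs of a cell, had a rho of 0.42 with each other, and its source was not tested. Whole-chromosome medians elsewhere stayed within 0.05 of 0 against cluster 4 except on chromosome 18 at -0.22 and on the mitochondrial genome at 0.06. On chromosome 18 cluster 2 also had -0.16 against cluster 1 but 0.04 against cluster 3. Its windows from base 10000001 to base 60000000 lay below 0 against each of the other clusters. The window starting at base 30000001, with 85 genes, had -0.40 against cluster 4, -0.29 against cluster 3 and -0.25 against cluster 1. From base 60000001 on, the windows of cluster 2 had 0.76 to 0.85 against cluster 3. Cluster 4 itself had 0.92 to 1.21 against cluster 3 there.

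Over the whole genome, 517 of 8140 compared genes (6.35%) were higher in cluster 2 than in cluster 4 and 287 (3.53%) were lower. The median ratio of all genes was 1.13, so 64.3% of the calls were higher, and with edgeR's TMM factors, which lower the median log2 ratio by 0.14, there were 375 higher and 374 lower calls (50.1% higher). Outside chromosome 10, 446 of 7733 genes (5.77%) were higher and 273 (3.53%) were lower. Against cluster 3, 868 of 8273 genes (10.5%) were higher in cluster 2 and 543 (6.56%) were lower. Against cluster 1, 866 of 8191 (10.6%) were higher and 452 (5.52%) were lower. Against clusters 3 and 1 both, 413 of 8009 (5.16%) were higher and 202 (2.52%) were lower. Against all of clusters 4, 3 and 1 at once, 194 of 7885 genes (2.46%) were higher and 65 (0.824%) were lower.

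Of the 10 genes farthest above cluster 4 outside chromosome 10, 5 were also past 1.5-fold against clusters 3 and 1: Cartpt, Cdkn2a, Fbp1, Sct and Top2a. Cdkn2a, the locus of the CDK inhibitor INK4A and of ARF, which blocks Mdm2, stood at 275 CPM in cluster 2, against 34.4 CPM in cluster 4, 55.2 CPM in cluster 3 and 23.2 CPM in cluster 1. Counts at the 3' end do not part its transcripts. Its ratio to cluster 4 was 8.0 (7.09 to 9.06), and 82.5% of cluster 2 cells lay above the 95th percentile of cluster 4. Cartpt stood at 264 CPM in cluster 2, against 31.1 CPM in cluster 4, 30.4 CPM in cluster 3 and 14.8 CPM in cluster 1. Fbp1, the gluconeogenic fructose-bisphosphatase, stood at 50.8 CPM in cluster 2, against 4.86 CPM in cluster 4, 1.49 CPM in cluster 3 and 9.96 CPM in cluster 1. Of the other 5, Xlr3a and Maob were past the fold against neither cluster 3 nor cluster 1, Peg10 was higher than in cluster 3 but not cluster 1, and Grb10 and Folr1 were higher than in cluster 1 but not cluster 3. Xlr3a stood at 32.4 CPM in cluster 2 and 0.486 CPM in cluster 4, but at 29.0 CPM in cluster 3 and 28.6 CPM in cluster 1. It has near-identical copies on the X chromosome, so its counts are uncertain.

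Of the 10 genes farthest below cluster 4, 5 were also called lower than in clusters 3 and 1, among them Pla2g2f, Cd59a, Kcnq1ot1 and Ccnd1. Pla2g2f, a secreted phospholipase gene, stood at 1.85 CPM in cluster 2, against 59.9 CPM in cluster 4, 83.4 CPM in cluster 3 and 98.7 CPM in cluster 1. Cd59a, the membrane inhibitor of complement lysis, stood at 7.76 CPM in cluster 2, against 191 CPM in cluster 4, 85.1 CPM in cluster 3 and 95.6 CPM in cluster 1. Caly, described above, was lower than in both as well, but was under 10 CPM in clusters 2 and 1 and so was not called against cluster 1. The others of the 10 included Tm4sf1 at 15.8 CPM in cluster 2 and 172 CPM in cluster 4, which was at 8.77 CPM in cluster 3 and 5.31 CPM in cluster 1.

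Genes that p53 is known to switch on did not move together with Mdm2. Of 18 compared members of the list of 30 p53 targets, 2 were higher in cluster 2 than in cluster 4 (Mdm2 and Sesn1) and 3 were lower (Trp53inp1, Ephx1 and Dcxr), read against 6.35% and 3.53% of all genes. The median relative log2 ratio of the list was -0.25 against cluster 4, -0.56 against cluster 3 and 0.10 against cluster 1. Cdkn1a, the p53-driven CDK inhibitor, stood at 154 CPM in cluster 2, against 168 CPM in cluster 4, 222 CPM in cluster 3 and 85.0 CPM in cluster 1. Ccng1 stood at 75.2 CPM in cluster 2, against 74.96 CPM in cluster 4, 119 CPM in cluster 3 and 69.1 CPM in cluster 1. Trp53inp1 stood at 67.4 CPM in cluster 2, against 141 CPM in cluster 4, 129 CPM in cluster 3 and 102 CPM in cluster 1. None of these 3 was past the fold upward against cluster 4. Bax, a pro-apoptotic pore-forming gene, stood at 288 CPM in cluster 2 and 212 CPM in cluster 4. Sesn1 lies on chromosome 10 next to a raised run, at 15.9 CPM in cluster 2 and 7.90 CPM in cluster 4. Trp53 itself, looked up after the list results, stood at 73.8 CPM in cluster 2, against 55.0 CPM in cluster 4, 38.1 CPM in cluster 3 and 46.8 CPM in cluster 1. Of 14 compared p53 regulators, 3 were higher than in cluster 4 (Mdm2, Cdkn2a and Hexim1) and 0 were lower, beside the same 6.35% and 3.53% of all genes. All of this is RNA: p53 protein was not measured.

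Around Cdk4, the genes of the INK4 inhibitors were higher and 1 cyclin was nearly absent. Of 17 compared G1 genes, 6 were higher in cluster 2 than in cluster 4 (Cdk4, Cdkn2a, Cdkn2b, Cdkn2c, Cdkn2d and Ccne2) and 1 was lower (Ccnd1), where 6.35% of all genes were higher and 3.53% lower. Cdkn2c stood at 109 CPM in cluster 2, against 55.0 CPM in cluster 4, 34.8 CPM in cluster 3 and 66.1 CPM in cluster 1. Cdkn2c and Cdkn2d encode further INK4 inhibitors of Cdk4. Cdkn2d stood at 43.3 CPM in cluster 2, against 14.9 CPM in cluster 4, 15.8 CPM in cluster 3 and 19.6 CPM in cluster 1. All 4 INK4 family genes were thus above cluster 4, whereas the other inhibitors compared, Cdkn1a (ratio 0.916) and Cdkn1b (1.39), were not past the fold. Ccnd2, another D-type cyclin, stood at 900 CPM in cluster 2, against 935 CPM in cluster 4, 1996 CPM in cluster 3 and 1392 CPM in cluster 1. Ccnd3 stood at 20.5 CPM in cluster 2 and 20.5 CPM in cluster 4. Cdk6, the close relative of Cdk4, was near the floor at 1.40 CPM in cluster 2 and 1.21 CPM in cluster 4. Rb1, the target of these kinases, stood at 16.7 CPM in cluster 2 and 10.7 CPM in cluster 4, a ratio of 1.56 (1.22 to 2.02) that was not past the fold.

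Division genes were higher in cluster 2. Of 15 compared G2/M genes, 13 were higher than in cluster 4 and 0 were lower (6.35% and 3.53% of all genes). Their relative median was 2.54 against cluster 4, 1.18 against cluster 3 and 1.19 against cluster 1. A gene low in cluster 4 was compared where cluster 2 alone reached 10 CPM, which can tilt these calls and medians upward. Summed over all 24 listed G2/M genes, the level was 476 CPM in cluster 2, 179 CPM in cluster 4, 256 CPM in cluster 3 and 267 CPM in cluster 1. Top2a, which untangles replicated DNA, stood at 39.8 CPM in cluster 2, against 4.13 CPM in cluster 4, 12.6 CPM in cluster 3 and 10.2 CPM in cluster 1. Of 8 compared S phase genes, 6 were higher than in cluster 4, among them Dut at 120 CPM in cluster 2 and 58.1 CPM in cluster 4. Against cluster 3 the relative median was 0.05 and 0 of 9 were past the fold. Over all 22 listed S phase genes the sum was 282 CPM in cluster 2, 132 CPM in cluster 4, 244 CPM in cluster 3 and 189 CPM in cluster 1. The share of cycling cells was measured after thinning to 5000 UMIs, as cells with UMIs of at least 2 of 11 cycle genes. It was 59 of 687 cells in cluster 2 (8.59%, exact 95% interval 6.60 to 10.9), against 14 of 381 in cluster 4 (3.67%, 2.02 to 6.09), 6.5% in cluster 3 (4.46 to 9.10) and 4.64% in cluster 1 (3.32 to 6.29). Unthinned the shares were 17.2% in cluster 2, 14.0% in cluster 4, 12.2% in cluster 3 and 10.4% in cluster 1. The intervals cover counting error only. After thinning those of clusters 2 and 3 overlap and those of clusters 2 and 4 do not, while unthinned those of clusters 2 and 4 (14.5 to 20.2 and 10.7 to 17.9) overlap too.

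Endocrine programs differed by cluster in an uneven way. Of 13 compared alpha identity factors, 4 were higher in cluster 2 than in cluster 4 (Pax6, Neurod1, Insm1 and Etv1) and 0 were lower, again beside 6.35% and 3.53% of all genes. Pax6, a master factor of glucagon transcription, stood at 216 CPM in cluster 2, against 63.7 CPM in cluster 4, 185 CPM in cluster 3 and 170 CPM in cluster 1, so that cluster 4 was the low one. Slc30a8, the zinc transporter of secretory granules, had the same shape, with 396 CPM in cluster 2, 106 CPM in cluster 4, 460 CPM in cluster 3 and 485 CPM in cluster 1. Of 12 compared peptide hormones, 7 were lower than in cluster 4 and 2 were higher, Sct and Cck (3.53% and 6.35% of all genes). Ins2 stood at 750 CPM in cluster 2, against 5654 CPM in cluster 4, 0.199 CPM in cluster 3 and 2.04 CPM in cluster 1. Cells with insulin RNA over 1% of their UMIs numbered 1 of 697 in cluster 2 and 60 of 385 in cluster 4, and 0 in clusters 3 and 1. Summed beta cell markers stood at 1199 CPM in cluster 2, against 6847 CPM in cluster 4, 7.57 CPM in cluster 3 and 138 CPM in cluster 1, with 8 of 10 detected in cluster 2, and the part of free RNA in these hormone levels was not tested. Of 23 genes of hormone processing and secretion, 2 were higher than in cluster 4 and 4 were lower (6.35% and 3.53% of all genes). Among them were Chgb at 653 CPM in cluster 2 and 320 CPM in cluster 4, and Scg2 at 530 CPM in cluster 2 and 960 CPM in cluster 4.

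Interferon and class I antigen genes were higher in cluster 2 than in cluster 4. Of 17 compared interferon response genes, 11 were higher and 0 were lower (6.35% and 3.53% of all genes), with a relative median of 0.75. Against cluster 1, 16 of 17 were higher (10.6% of all genes), and against cluster 3, 4 of 17 were (10.5%). Ifit1, an interferon-induced RNA sensor gene, stood at 59.3 CPM in cluster 2, against 23.7 CPM in cluster 4, 21.6 CPM in cluster 3 and 3.14 CPM in cluster 1. Stat2, a transcription factor of the type I interferon response that lies on chromosome 10, stood at 31.2 CPM in cluster 2, against 6.93 CPM in cluster 4, 26.4 CPM in cluster 3 and 5.31 CPM in cluster 1. B2m, the invariant chain of class I molecules, stood at 2161 CPM in cluster 2, against 586 CPM in cluster 4, 769 CPM in cluster 3 and 242 CPM in cluster 1. Of 15 antigen presentation genes, 6 were higher than in cluster 4, all of the class I pathway, and 4 genes of the class II pathway (Cd74, H2-Aa, H2-Ab1 and H2-Eb1) were lower, read against the same 6.35% and 3.53%. These 4 were higher in cluster 2 than in clusters 3 and 1, with Cd74 at 103 CPM in cluster 2, against 209 CPM in cluster 4, 52.0 CPM in cluster 3 and 17.0 CPM in cluster 1. Macrophages carry class II genes, and summed macrophage markers stood at 218 CPM in cluster 2, 484 CPM in cluster 4, 232 CPM in cluster 3 and 56.5 CPM in cluster 1, with 9 of 10 detected in cluster 2, and their part was not tested.

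Several other programs held few calls or none against cluster 4, where 6.35% of all genes were higher and 3.53% lower. No member of the unfolded protein response (17 compared), heat shock (10), apoptosis (12) or neuroendocrine tumor suppressor (12) lists was past the fold either way against cluster 4. Against the other libraries more heat shock genes were past the fold: 5 of 11 were higher than in cluster 3 (10.5% of all genes) and 1 was lower, and 7 of 10 were higher than in cluster 1 (10.6%). Genes of the unfolded protein response lay 0.33, 0.21 and 0.45 below the median log2 ratio of all genes against clusters 4, 3 and 1, with 4 of 17 lower than in cluster 1 (5.52% of all genes). Of 10 amino acid transporters 0 were higher than in cluster 4 and 1, Slc7a1, was lower (6.35% and 3.53% of all genes). Slc38a5, the glutamine transporter of dividing alpha cells in receptor knockout mice, stood at 1781 CPM in cluster 2, against 1358 CPM in cluster 4, 1145 CPM in cluster 3 and 1835 CPM in cluster 1. Immediate early genes were split, with 3 of 21 higher and 6 lower than in cluster 4, read against 6.35% and 3.53% of all genes. Among them were Klf2 at 137 CPM in cluster 2 and 43.7 CPM in cluster 4, and Egr1 at 245 CPM in cluster 2 and 571 CPM in cluster 4. Ribosomal protein genes lay 1.14 below the median against cluster 3, with 22 of 31 lower (6.56% of all genes). They lay 0.18 below it against cluster 4 and cluster 1.

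**Figure D5:**
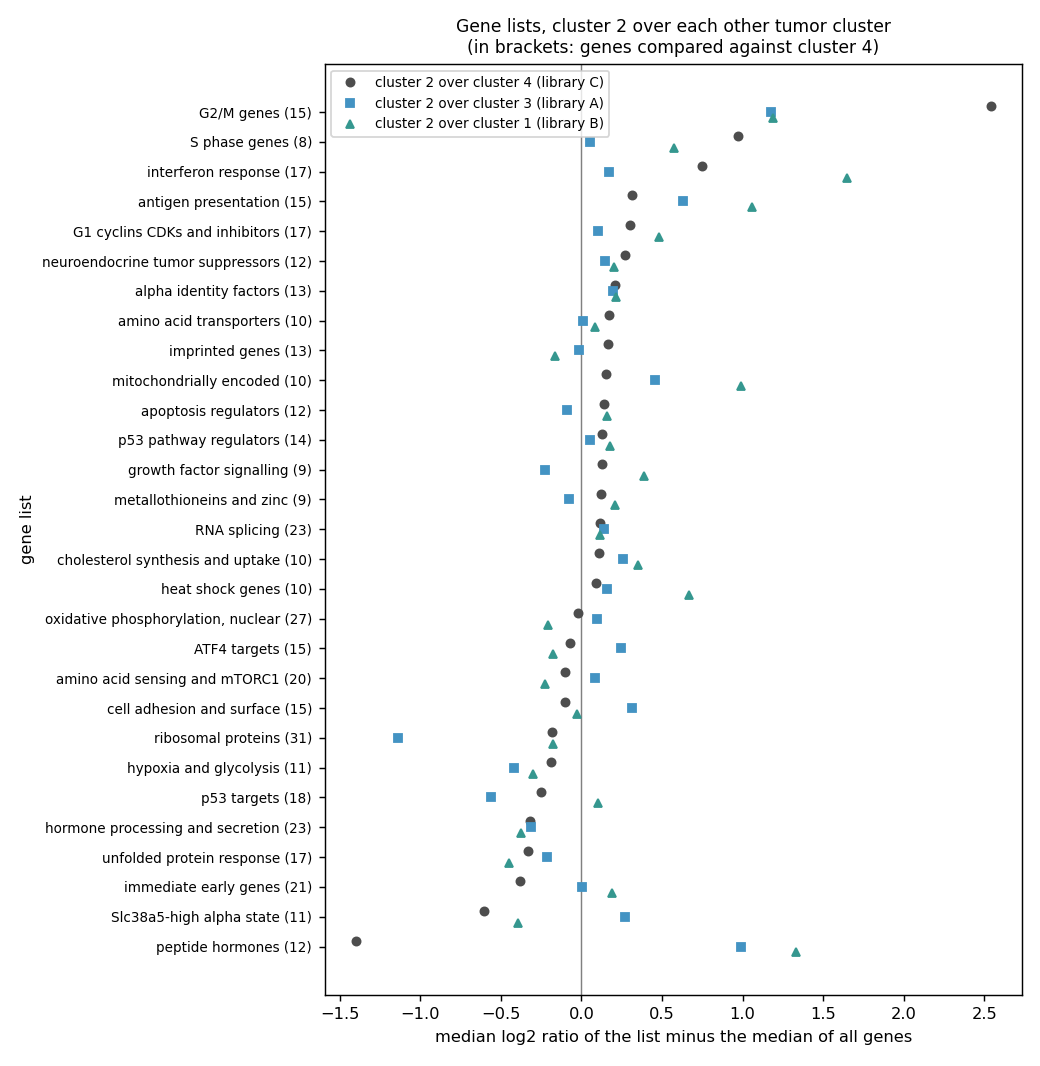
Median log2 ratio of each gene list minus the median of all genes, for cluster 2 over cluster 4, over cluster 3 and over cluster 1, with the number of genes compared against cluster 4 in brackets. G2/M genes lie to the right in all 3 comparisons (2.54, 1.18 and 1.19), and p53 targets lie at -0.25, -0.56 and 0.10.

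Comparisons with clusters 3 and 1 cross libraries. Cluster and library cannot be told apart in these comparisons. Xist, the RNA of the inactive X chromosome, had 5 UMIs in cluster 2 and 1 in cluster 4, but stood at 1464 CPM in cluster 3 and 1729 CPM in cluster 1, and the Y-linked gene Ddx3y stood at 71.1 CPM in cluster 2, 63.9 CPM in cluster 4, 0.399 CPM in cluster 3 and 0.399 CPM in cluster 1. Library C thus came from a male source by these genes and the other 2 from female ones. Among the 10 genes farthest above both clusters outside chromosome 10 were also Ins2, Ins1, Sst, hemoglobin genes and the acinar gene Try5. Summed acinar markers stood at 201 CPM in cluster 2, 264 CPM in cluster 4, 17.4 CPM in cluster 3 and 3.81 CPM in cluster 1, and summed erythroid markers at 299 CPM in cluster 2, 299 CPM in cluster 4, 25.4 CPM in cluster 3 and 3.72 CPM in cluster 1. These markers were as high in cluster 4 as in cluster 2, and their part in the calls was not tested. Id2, an inhibitor of helix-loop-helix factors, stood at 52.8 CPM in cluster 2, against 13.0 CPM in cluster 4, 3.29 CPM in cluster 3 and 2.39 CPM in cluster 1. Rps4l, a retrogene-like ribosomal protein gene whose reads could be shared with its parent, stood at 247 CPM in cluster 2, against 62.1 CPM in cluster 4, 5.48 CPM in cluster 3 and 1.82 CPM in cluster 1. Pyy, the gut and islet peptide YY, was lower throughout, with 709 CPM in cluster 2, 2642 CPM in cluster 4, 3364 CPM in cluster 3 and 10766 CPM in cluster 1.

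The pooled level of the tdTomato reporter was highest in cluster 2, and single cells spread widely there and elsewhere. Its pooled level was 1403 CPM in cluster 2 (1383 to 1423), against 246 CPM in cluster 4 (236 to 257), 734 CPM in cluster 3 and 700 CPM in cluster 1, a ratio to cluster 4 of 5.70 (5.44 to 5.97). In homozygous knockout islet alpha cells it stood at 394 CPM. After thinning to 5000 UMIs, 80.2% of cluster 2 cells had a reporter UMI, against 65.6% in cluster 4, 76.1% in cluster 3 and 70.3% in cluster 1, and unthinned the shares were 94.5% in cluster 2, 97.4% in cluster 4, 95.7% in cluster 3 and 97.6% in cluster 1. No tumor cell type without the reporter was available to give the background of free RNA. Within cluster 2, 441 of 697 cells (63.3%) lay above the 95th percentile of cluster 4, while 188 lay below its median. The median cluster 2 cell had 1214 CPM and the lower quartile 180 CPM. The excess squared coefficient of variation was 0.905 in cluster 2 and 0.903 in cluster 4. By quartiles, cells ran from 180 to 2125 CPM in cluster 2 and from 143 to 310 CPM in cluster 4. The 95th percentile was 72.9 times the 5th in cluster 3, 70.5 times in cluster 1 and 10.7 times in cluster 4. In cluster 2 the 5th percentile was 0, so this ratio has no value there. Wide spreads were thus measured in clusters 3 and 1 too. Reporter level had a rho of 0.27 with Mdm2 and -0.11 with Cdk4 over the 697 cells, both weak. The long noncoding RNA of the Rosa26 locus, Gt(ROSA)26Sor, stood at 77.7 CPM in cluster 2, against 41.9 CPM in cluster 4, 34.9 CPM in cluster 3 and 39.2 CPM in cluster 1. Glucagon RNA had a rho of -0.51 with Mdm2 and -0.21 with Cdk4 over the same cells. CPM is a share of each cell's UMIs, of which Gcg takes a large part, so these values are not independent of each other.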

How the data were processed

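The deposited tumor table holds a normalized signal per gene and cell with header lines for cluster, library, cell class and UMI totals. The authors' scaling is not described in the labels. Multiplying each deposited signal value by the cell's total and dividing by 12219 gave whole UMI counts for 100.0% of 10422384 nonzero values (tolerance 0.01), and these counts were used. The homozygous islet table was scaled alike and served only for levels in alpha cells. Per the submitters' processing notes, CASAVA 1.8, bcl2fastq 2.17, GSNAP and GRCm38 were named, with no roles.

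Doublets were called per library with Scrublet (scanpy 1.11.5, expected rate 0.06), which marked 18 cells in library A, 9 in B and 15 in C. Counts were pooled by cluster, and ratios have exact conditional binomial 95% intervals. PCR copies share a UMI, so intervals cover counting error of molecules only. Positions came from RefSeq GRCm38.p6, which matched 31045 of 36529 gene rows (85.0%, with 97.5% of UMIs). No cell name was shared between libraries. The titles do not say which tumor sample is library A, B or C.

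The members, gene lists and several rules were chosen with earlier results of these data known. Named genes are the 10 in each direction with the interval bound farthest from 1 (30 CPM or more in 1 cluster, no predicted name), the same outside chromosome 10, up to 4 past the fold per list, all p53 target and G1 genes, the markers, Gcg, Slc38a5, Gcgr and the reporter; raised chromosome 10 genes and those marked so in the text were named after their values were seen. The ratio call was tested on simulated counts of cluster 2 against cluster 4 over 8140 genes: 76.0% of 2-fold and 95.0% of 4-fold changes were called, and 0 of 7940 unchanged genes. The simulated counts held Poisson noise only, the model behind the interval, and no spread between cells. They therefore cannot show how often such spread leads to a call. TMM factors came from edgeR 4.0.16. A gene that the rule names is not reported here.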

Additional observations from a re-analysis of the deposited data

How the results depend on the processing

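Over all results 446 alternative values were computed, of which 376 stayed within 1.5 times the count or within the error of the value and 70 moved. Only medians of gene lists, chromosomes and chromosome stretches could be labelled reversed, and 0 were. Counts of calls, ratios, shares, spreads and correlations could only be labelled as staying or moving. The marker ratios, the 2 chromosome stretches and the reporter ratio were among those that stayed. Against cluster 4, 195 genes were higher and 117 lower with a minimum of 50 CPM, 890 and 599 with no minimum, and 234 and 139 at 2-fold. After thinning to 5000 UMIs 322 were higher. Outside chromosome 10 the counts were 151 and 113, 784 and 572, and 180 and 134, with 262 higher after thinning. Against cluster 3 they were 383 and 261, 1387 and 943, and 311 and 237, with 815 lower when hormone genes were left out of the totals. Against cluster 1 they were 276 and 218, 2169 and 791, and 386 and 149. Under TMM factors they were 564 and 767, so lower calls outnumbered higher ones, unlike the 866 and 452 of the main setting. Against both they were 178 and 101, 749 and 331, and 171 and 55, with 269 higher under TMM factors. With 1 of the 2 other libraries left out, 866 to 868 were higher and 452 to 543 lower. For the scaling alternatives the cause was not tested.

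The share of cycling cells was 11.9% in cluster 2 and 6.32% in cluster 4 at 10000 UMIs, 17.2% and 14.0% unthinned, and 1.31% in cluster 4 with 3 cycle genes needed. The variance over mean of raised genes in cluster 2 was 5.10 at 10000 UMIs and 2.95 at 5000. The summed chromosome 10 ratio was 2.45 with doublets kept and 2.38 without hormone genes, against 2.47; without them chromosome 16 had 1.43 and chromosome 7 had 0.979. Cells with a reporter UMI were 94.5% in cluster 2 and 97.4% in cluster 4 unthinned. Leaving out insulin-rich cells or cells typed otherwise, both added after seeing the data, gave 509 and 522 higher calls against cluster 4. Of 302 alternative medians over 38 gene lists, 286 stayed and 16 moved. No paired analysis was possible because cluster 2 came from 1 library and the result comes from no test between samples.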
